A study of Saccharomyces cerevisiae with 30 samples.

Results

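The genes described here are 36 genes of Saccharomyces cerevisiae that build amino acids, together with GCN4, the activator gene counted among them, out of 5547 genes measured. They were chosen by name from their pathways: 5 genes of arginine synthesis, 4 of histidine, 8 of the branched-chain amino acids, 6 of lysine, 8 of the aromatic amino acids and 4 of threonine. HIS3, TRP1 and other genes used as selection markers were left out. The list was drawn up with earlier results of these data known and holds only part of each pathway. Its shares below therefore do not stand for whole pathways. Each of the 36 genes had 1 spot on the array, and all 36 were tested in every strain.

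When amino acids run short, uncharged transfer RNA activates the kinase Gcn2, general translation slows, and translation of the GCN4 messenger rises. The Gcn4 protein then activates genes of many amino acid pathways at once, a response called general amino acid control. Gcn4 recruits the coactivator SAGA, which contains the acetyltransferase Gcn5 and the subunit Spt3. Like the general factor TFIID, SAGA helps bring the TATA-binding protein to promoters.

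Each two-channel array compared RNA of a test strain with RNA of a reference strain, YJS6 or YKH105. YKH100, YKH101, YJS7, YJS8 and YJS9 were set against YJS6, and YKH104, YKH106, YKH107, YKH108 and YKH109 against YKH105. All cultures grew at 26 °C in CSM-Trp-His, a synthetic medium without tryptophan and histidine, so every strain and both references had to make these amino acids. Test and reference cultures were then shifted to 37 °C for 45 min, except in 1 group, for which both YJS8 and its YJS6 reference stayed at 26 °C. The genotypes of the strains are not given in the sources used here, nor whether the arrays of a strain came from separate cultures or clones, and none was assumed. A lower ratio in a culture can come from less transcript in every cell or from fewer cells that hold it, which cannot be told apart.

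Of 30 arrays, 7 held a reference strain in both channels and 23 held a test strain. A column of 6379 values was deposited identically for replicate 2 of YKH100 and of YJS8, so it was not used in the tests, which left 1 array each for YKH100 and YJS8, 3 for YKH109 and 2 for every other group. All values are log2 ratios relative to the median gene of their array, so that 1 is a 2-fold difference, and the fitted values given with a standard error (SE) allow for the dye. The labels do not state the direction of the ratio. It was read as likely test over reference, because GCN5 stood at -4.98 on the YKH100 array and at -5.14 and -5.64 on the YKH101 arrays, and SPT3 between -8.96 and -7.50 on the YKH104 and YKH107 arrays. GCN5 also reached high values, 2.53 and 2.43 on the YJS7 arrays and 3.40 and 3.06 on the YJS9 arrays, so the reading rests on the size of the low values and remains an assumption. If the ratio runs the other way, every sign below turns. On the deposited scale the median of all genes itself lay at -0.96 in YKH107, -0.89 in YKH109, -0.88 in YJS8, -0.70 in YKH108, -0.69 in YKH101, -0.52 in YJS9, -0.27 in YJS8 at 26 °C, -0.22 in YKH100, 0.11 in YKH104, 0.18 in YJS7 and 0.18 in YKH106, so directions are given against that shift. One array stands apart. YKH109 replicate 2 had values for 5955 spots and an SD over genes of 1.14, against at most 0.83 on the others.

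The 36 genes did not move as a block. Genes with an adjusted p under 0.05 were called, and 28 of the 36 were called in at least 1 of the 10 shifted strains. Of these, 12 were higher in some strains and lower in others. The same counts were not made over all genes, so neither is read as particular to the list. In YKH107, 17 genes fell and 2 rose, in YJS8 10 rose and 1 fell, and in YJS7 6 fell and 0 rose.

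Against YKH105, the 17 lower genes in YKH107 were 47.2% of the list, while 24.7% of all tested genes were lower. The 2 higher genes were 5.56%, against 23.9% of all genes, and the list's median was -0.54 against 0.00 for all genes. YKH108 went the other way, with 14 higher genes (38.9%, against 17.6% of all) and 4 lower (11.1%, against 19.6%). In YKH104, 7 genes were lower (19.4%, against 7.12%) and 2 higher (5.56%, against 6.56%). In YKH109, 9 were higher and 11 lower, 25% and 30.6% of the list, which is near the 25.5% and 27.6% of all genes.

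Against YJS6, 15 genes were higher in YJS9 (41.7%, against 21.7% of all) and 4 lower (11.1%, against 22.3%). YKH101 had 13 higher (36.1%, against 19.6%) and 5 lower (13.9%, against 20.1%). YJS8 had 10 higher (27.8%, against 8.34%) and 1 lower (2.78%, against 7.47%), and its list median of 0.40 was the highest of the 11 groups. In YJS7, 6 genes were lower (16.7%, against 6.93%) and 0 higher, while 7.36% of all genes were higher there. With limma, 0 of the 36 were called in YKH100, in YKH106 and in YJS8 kept at 26 °C, where 1.24%, 1.09% and 0.0182% of all genes were called in either direction. At an unadjusted p under 0.05 there were 3 genes in YKH100 (8.33%, against 12.9% of all genes), 9 in YKH106 (25%, against 10.2%) and 0 in YJS8 at 26 °C (against 0.728%). The 2 arrays of YJS8 at 26 °C correlated negatively over genes (r = -0.44), so the 0 calls there do not show that the genes were equal. Those of YKH106 (r = 0.29) and of YJS7 (r = 0.27) correlated only weakly, which also limits the counts of these strains.

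These counts depend on the scale and on single arrays. On the deposited scale the split of higher and lower genes became 0 and 27 in YKH107, 0 and 21 in YKH109 and 0 and 7 in YKH101. It was 1 and 5 in YJS9, 0 and 4 in YKH108, and 0 and 0 in YJS8, YJS7 and YKH104. At an unadjusted limma p under 0.05 there were 30 genes in YKH107 (against 60.8% of all genes) and 22 in YKH109 (against 67.5%). Calls over all genes were not counted in these settings, so the counts are not read as particular to the list. Left to 1 array, YKH104 had 2 or 1 calls in place of 9, YKH108 had 8 in place of 18 without either replicate, YKH101 10 or 9 in place of 18, YJS9 12 in place of 19 without replicate 1 and YJS7 0 in place of 6 without replicate 2. With the repeated column counted as YJS8, that strain had 3 calls. That column held GCN5 at -6.00, against -4.98 on the YKH100 array and 0.52 on the YJS8 array, so this count may mix strains.

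**Figure D1:**
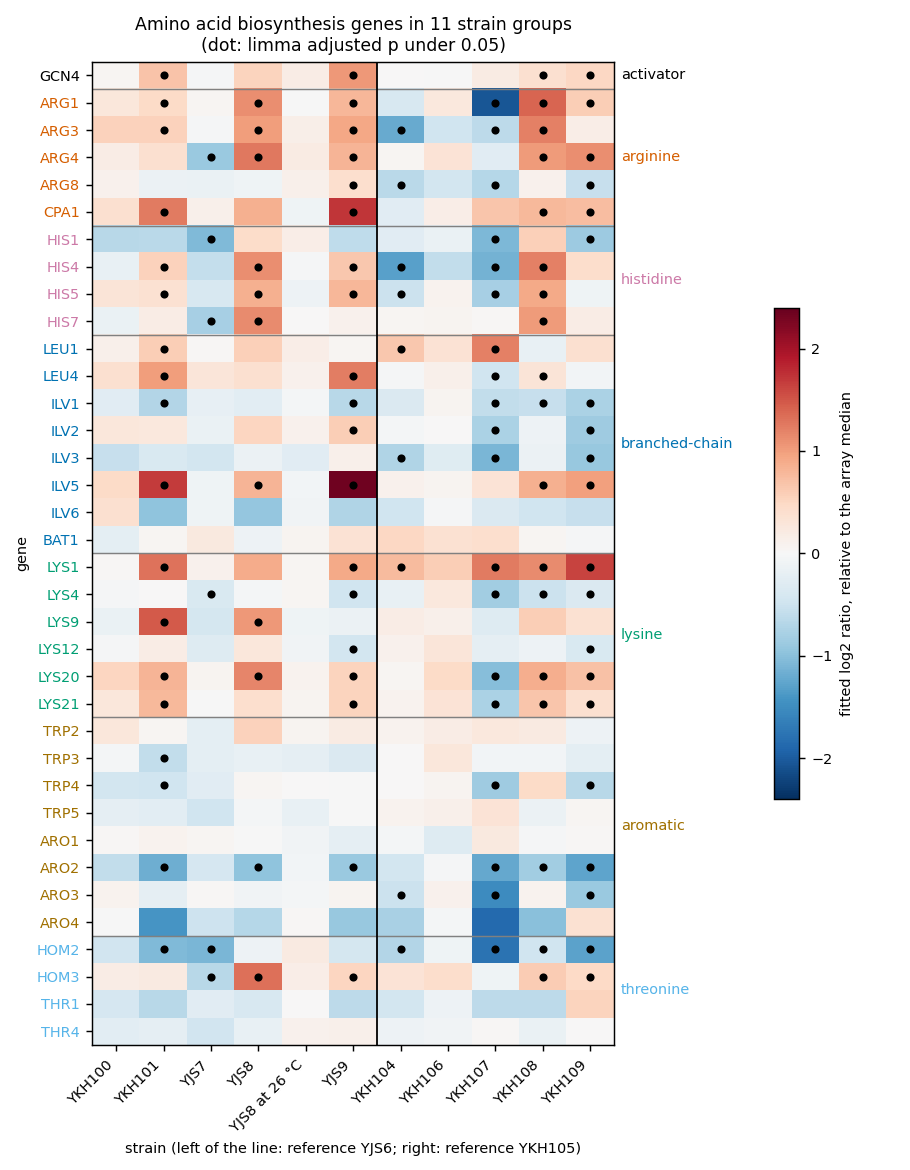
Fitted log2 ratio relative to the array median of each of the 36 genes (rows, coloured by pathway) in the 11 strain groups (columns). Red is higher and blue lower in the test strain, and a dot marks an adjusted p under 0.05: YKH107 holds 17 lower genes, YKH106 and YJS8 at 26 °C hold no dot.

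GCN4 (YEL009C), which encodes the activator of general amino acid control, rose in 4 strains and fell in none. On single arrays GCN4 stood at 1.18 and 0.90 in YJS9, at 0.85 and 0.52 in YKH101, at 0.51 and 0.24 in YKH108, and at 0.50, 0.32 and 0.51 in YKH109. All of these lay above the self arrays, which ran from -0.27 to 0.18. The same held for 22.1% of all genes in YJS9, 19.6% in YKH101, 19.8% in YKH108 and 17.3% in YKH109. Over the shifted strains, 5.03% (YKH106) to 27.9% (YJS8) of all genes lay above their self arrays on every array. Below them lay 6.26% (YKH106) to 29.8% (YKH107). Such positions, here and below, are therefore description and are not particular to the genes named. The fitted values were 1.04 ± 0.12 (SE, adjusted p = 2.75e-05) in YJS9, 0.68 ± 0.12 in YKH101, 0.49 ± 0.10 in YKH109 and 0.38 ± 0.12 (adjusted p = 0.0262) in YKH108. On the deposited scale GCN4 kept a positive sign in YJS9 (0.51) and was at -0.01, -0.42 and -0.32 in YKH101, YKH109 and YKH108, below 0 but above the median gene. The call in YKH108 was lost without either of its arrays.

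In the other strains GCN4 was not called. The single YJS8 array had 0.69 and a fitted value of 0.54 ± 0.17 (adjusted p = 0.0539). YKH107 had 0.36 and 0.04, fitted at 0.20 ± 0.12. The YJS7 arrays disagreed in sign, with 0.34 and -0.39, as did those of YKH104 (0.15 and -0.11) and YKH106 (0.21 and -0.23). YKH100 had 0.20 on its array, and YJS8 at 26 °C 0.20 and 0.14. GCN4 is regulated mainly in translation, and the arrays measured only its messenger.

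**Figure D2:**
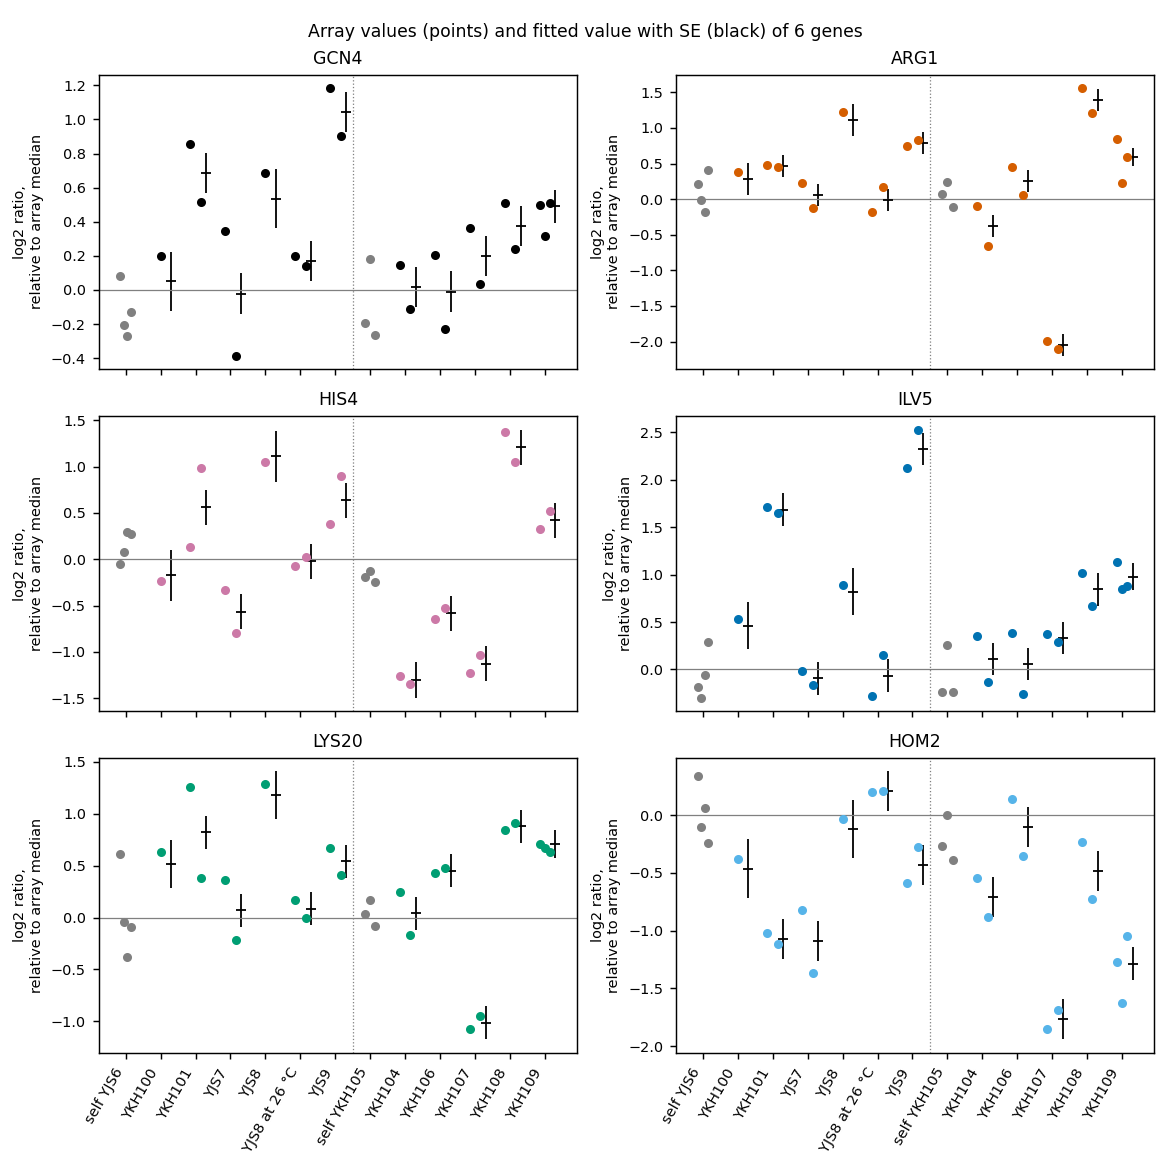
Log2 ratio relative to the array median on each array (points; grey for the self arrays) and the fitted value with its SE (black) for GCN4 and 5 enzyme genes, by strain. ARG1, HIS4 and LYS20 lie near opposite ends in YKH107 and YKH108, while HOM2 lies below 0 on all arrays of both.

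Of the 5 arginine genes, 5 rose in YJS9, 4 in YKH108 and 3 each in YJS8 and YKH101, with 0 lower there. In YKH107 3 fell and 0 rose, and in YKH109 3 rose and 1 fell. Over all genes, 21.7% rose in YJS9, 17.6% in YKH108, 8.34% in YJS8 and 19.6% in YKH101. In YKH107 24.7% of all genes fell, and in YKH109 25.5% rose and 27.6% fell. Counts by pathway, here and below, cover few listed genes and are not read as traits of a pathway. ARG1 (YOL058W), argininosuccinate synthetase, had the widest range of the 5. Its arrays read -1.99 and -2.11 in YKH107, against 1.56 and 1.21 in YKH108, 1.22 in YJS8, 0.75 and 0.83 in YJS9 and 0.48 and 0.45 in YKH101. The YKH109 arrays had 0.85, 0.23 and 0.60. The YKH107 arrays lay far below every other array, self arrays included, which held between -0.17 and 0.42.

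ARG1 was accordingly called lower in YKH107, at -2.05 ± 0.15 (adjusted p = 1.69e-06), and higher in YKH108 at 1.39 ± 0.15, in YJS8 at 1.11 ± 0.22, in YJS9 at 0.79 ± 0.15, in YKH109 at 0.59 ± 0.13 and in YKH101 at 0.47 ± 0.15. It was not called in YKH104 (-0.09 and -0.66), YKH106 (0.45 and 0.06), YKH100 (0.38), YJS7 (0.23 and -0.13) or YJS8 at 26 °C (-0.18 and 0.16). ARG3, ornithine carbamoyltransferase, which makes citrulline, fell in YKH104 at -1.21 ± 0.14 (adjusted p = 0.00045) and in YKH107 at -0.62 ± 0.14. It rose in YKH108 (1.21 ± 0.14), YJS8 (1.01 ± 0.21), YJS9 (0.92 ± 0.14) and YKH101 (0.55 ± 0.14).

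ARG4, argininosuccinate lyase, which releases arginine, rose in YJS8 (1.26 ± 0.27), YKH109 (1.12 ± 0.15), YKH108 (1.03 ± 0.18) and YJS9 (0.82 ± 0.18). It fell only in YJS7 among the 10 shifted strains (-0.88 ± 0.18, adjusted p = 0.00951). The YJS7 arrays of ARG4 read -0.38 and -1.39, and the first lay within its self arrays, at -0.40 to 0.55. CPA1, the small subunit of the carbamoyl phosphate synthetase of this pathway, rose most in YJS9 (1.71 ± 0.28) and YKH101 (1.25 ± 0.28), and less in YKH108 (0.77) and YKH109 (0.75). It was the arginine gene with no lower call. Its value of 0.66 in YKH107 was not called.

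ARG8 (YOL140W), the mitochondrial acetylornithine aminotransferase, moved least. It read -0.76 and -0.62 in YKH107, -0.61, -0.51 and -0.54 in YKH109 and -0.57 and -0.71 in YKH104, and was called lower in all 3. The YJS9 arrays had 0.26 and 0.55, called higher at 0.41 ± 0.15 (adjusted p = 0.0492). Both YKH108 arrays had 0.11. Values elsewhere were 0.20 and -0.52 in YJS7, -0.07 in YJS8, 0.12 on both arrays of YJS8 at 26 °C, 0.13 in YKH100, -0.28 and -0.02 in YKH101 and -0.26 and -0.63 in YKH106, and none of these was called.

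Of the 4 histidine genes, 3 rose in YJS8 and in YKH108 and 2 in YJS9 and in YKH101. In YKH107 3 fell, and in YJS7 and in YKH104 2 fell. Over all genes, 8.34% rose in YJS8, 17.6% in YKH108, 21.7% in YJS9 and 19.6% in YKH101. The shares that fell were 24.7% in YKH107, 6.93% in YJS7 and 7.12% in YKH104. HIS4 (YCL030C), an enzyme with several activities of the pathway and a long-used reporter of Gcn4, moved most. Its arrays read 1.37 and 1.05 in YKH108 and 1.05 in YJS8, against -1.26 and -1.34 in YKH104, -1.22 and -1.03 in YKH107 and -0.64 and -0.53 in YKH106. YJS9 had 0.38 and 0.90, YKH101 0.14 and 0.98, YKH109 0.33 and 0.52 with no value on replicate 2, YJS7 -0.33 and -0.79, YKH100 -0.23 and YJS8 at 26 °C -0.07 and 0.03. The self arrays held between -0.25 and 0.29, so that all arrays of YKH104, YKH106, YKH107 and YJS7 lay below them.

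The fit called HIS4 lower in YKH104 (-1.30 ± 0.19, adjusted p = 0.00198) and YKH107 (-1.13 ± 0.19). It was higher in YKH108 (1.21 ± 0.19), YJS8 (1.11 ± 0.28), YJS9 (0.64 ± 0.19) and YKH101 (0.56 ± 0.19). In YKH106 the value of -0.59 was the largest in size of that strain's 36 but was not called. The YKH101 call was lost without replicate 2 of that strain, and also without either YKH107 array.

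HIS5, histidinol-phosphate aminotransferase, was called in the same 6 strains and in the same directions as HIS4, between -0.79 ± 0.12 in YKH107 and 0.92 ± 0.12 in YKH108. HIS1, ATP phosphoribosyltransferase, which carries out the first step and is inhibited by histidine, had no higher call. It was lower in YKH107 (-1.08 ± 0.24), YJS7 (-1.06 ± 0.24) and YKH109 (-0.87 ± 0.20), and at -0.67 in YKH100 it was the largest in size there without a call.

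HIS7 (YBR248C), imidazole glycerol phosphate synthase, had the smallest mean size of the 4. It read 1.10 in YJS8 and 1.07 and 0.97 in YKH108, both called higher, and -0.80 and -0.78 in YJS7, called lower at -0.79 ± 0.18. The YKH107 arrays, low for the other 3 histidine genes, had 0.04 and 0.02. Its remaining values ran from -0.20 to 0.51 and were not called.

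**Figure D3:**
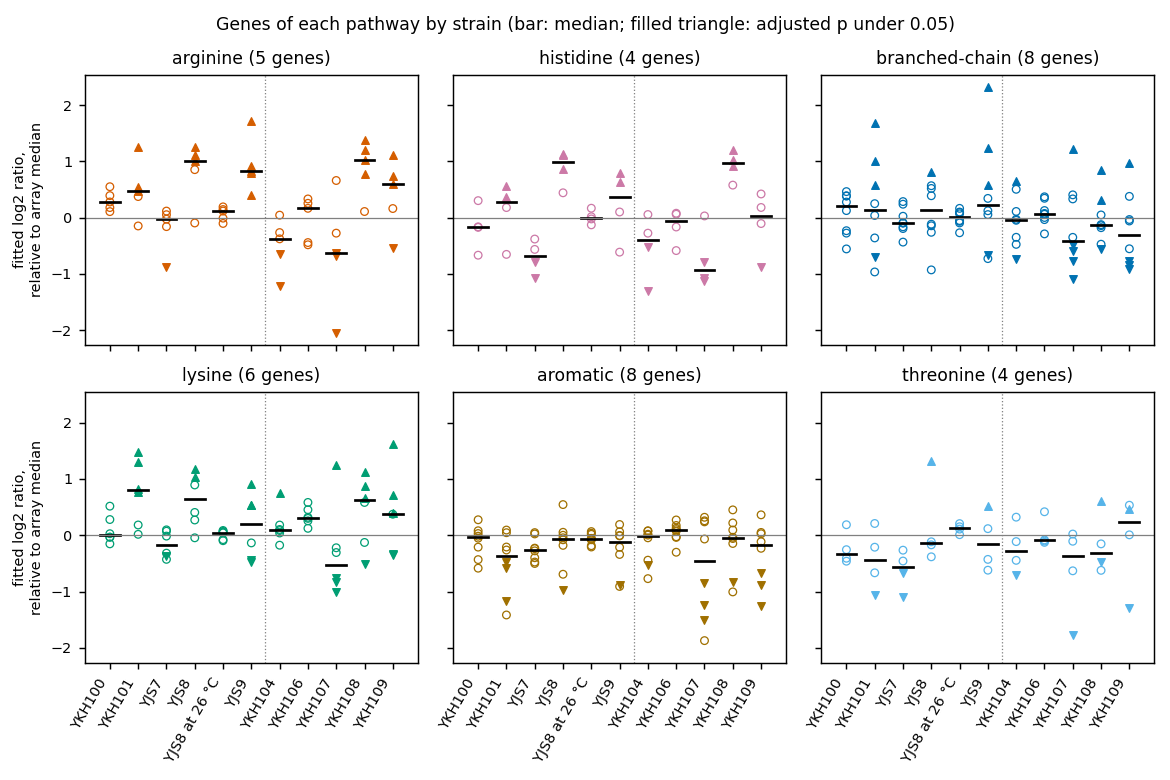
Fitted log2 ratio relative to the array median of the genes of 6 pathways (points) by strain, with the median of each pathway (bar); filled triangles mark an adjusted p under 0.05. Arginine and histidine medians are highest in YJS8 and YKH108, at 1.01 and 0.98 in YJS8, and lowest in YKH107.

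Branched-chain genes split within the pathway, with 3 of 8 higher and 1 lower in YJS9. In YKH107 1 was higher and 4 lower, and in YKH109 1 was higher and 3 lower. Over all genes, 21.7% were higher and 22.3% lower in YJS9. The shares were 23.9% and 24.7% in YKH107, and 25.5% and 27.6% in YKH109. ILV5 (YLR355C), acetohydroxyacid reductoisomerase of the mitochondrion, rose in 5 strains. Its arrays read 2.12 and 2.53 in YJS9 and 1.72 and 1.65 in YKH101, and its fitted value was the highest of the 36 genes in both strains. YKH109 had 1.14, 0.84 and 0.88, YKH108 1.02 and 0.67, YJS8 0.89 and YKH100 0.53. All of these lay above the self arrays, at -0.30 to 0.29.

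The fitted values of ILV5 were 2.33 ± 0.17 in YJS9 (adjusted p = 1.17e-06), 1.69 ± 0.17 in YKH101, 0.98 ± 0.14 in YKH109, 0.84 ± 0.17 in YKH108 and 0.82 ± 0.25 in YJS8 (adjusted p = 0.0432). In YJS9 it was the 1 gene of the 36 that stayed called higher on the deposited scale. It was not called in YKH107 (0.37 and 0.29), YKH104 (0.36 and -0.14), YKH106 (0.38 and -0.26), YJS7 (-0.02 and -0.17) or YJS8 at 26 °C (-0.28 and 0.15).

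ILV1, threonine deaminase, which starts isoleucine synthesis, was lower in YKH109, YKH101, YJS9, YKH107 and YKH108, between -0.77 and -0.55. ILV3, dihydroxyacid dehydratase, acts right after Ilv5 and was lower in YKH107 (-1.10 ± 0.21), YKH109 (-0.92 ± 0.18) and YKH104 (-0.73 ± 0.21). ILV2, the catalytic subunit of acetolactate synthase, was lower in YKH109 (-0.84 ± 0.10) and YKH107 (-0.76 ± 0.12) and higher in YJS9 (0.59 ± 0.12).

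ILV6, its regulatory subunit, was called nowhere, with values from -0.96 to 0.39. Its self arrays alone ran from -0.64 to 1.39, the widest of the 36. For leucine, LEU4, the main isopropylmalate synthase, rose in YJS9 (1.24 ± 0.10), YKH101 (0.999 ± 0.10) and YKH108 (0.32 ± 0.10) and fell in YKH107 (-0.48 ± 0.10). LEU1, isopropylmalate isomerase, went the other way in YKH107, where it rose by 1.21 ± 0.19, and it also rose in YKH104 (0.64 ± 0.19) and YKH101 (0.59 ± 0.19).

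BAT1 (YHR208W), the mitochondrial branched-chain aminotransferase, was called in no group. Its arrays ran from -0.38 on YKH109 replicate 2 to 0.83 on YKH104 replicate 1. The 2 arrays of a strain often differed by as much as the strains, as in YKH106 with 0.78 and -0.04, YKH108 with 0.39 and -0.30 and YKH104 with 0.83 and 0.17. On the self arrays it already spanned -0.23 to 0.81.

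Of the 6 lysine genes, 4 rose in YKH101 and 0 fell, and in YKH107 1 rose and 3 fell. Over all genes, 19.6% rose and 20.1% fell in YKH101, and 23.9% rose and 24.7% fell in YKH107. LYS1 (YIR034C), the saccharopine dehydrogenase that yields lysine, rose in 6 strains and fell in none. Its arrays read 1.67, 1.53 and 1.66 in YKH109, 1.25 on both YKH107 arrays, 1.53 and 0.72 in YKH108, 0.90 and 1.69 in YKH101, 0.73 and 1.08 in YJS9 and 0.94 and 0.57 in YKH104. YJS8 had 0.89, YKH106 0.79 and 0.37, YKH100 0.02, YJS7 0.02 and 0.17 and YJS8 at 26 °C -0.23 and 0.31, and none of these was called. The self arrays reached 0.53.

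Fitted, LYS1 was at 1.62 ± 0.18 in YKH109, 1.30 ± 0.22 in YKH101, 1.25 ± 0.22 in YKH107, 1.13 ± 0.22 in YKH108, 0.90 ± 0.22 in YJS9 and 0.76 ± 0.22 in YKH104 (adjusted p = 0.0436). In YKH107 it was 1 of the 2 higher genes. LYS9, the saccharopine dehydrogenase that acts just before it, rose in YKH101 (1.48 ± 0.22) and YJS8 (1.03 ± 0.32, adjusted p = 0.0484).

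LYS20 and LYS21 encode the homocitrate synthases of the first step. They are close copies, and their probes may share RNA, so that their values are uncertain as separate measurements. LYS20 fell in YKH107 (-1.08 and -0.95 on the arrays, fitted -1.01 ± 0.16) and rose in YJS8 (1.29 on its array, fitted 1.18 ± 0.23), YKH108 (0.88 ± 0.16), YKH101 (0.82 ± 0.16), YKH109 (0.71 ± 0.13) and YJS9 (0.54 ± 0.16). LYS21 had the same directions, from -0.76 in YKH107 to 0.77 in YKH101, and its 0.41 in YJS8 was not called.

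LYS4, homoaconitase, had no higher call and was lower in YKH107 (-0.83 ± 0.11), YKH108, YJS9, YJS7 and YKH109 (-0.34 ± 0.09). LYS12 (YIL094C), homoisocitrate dehydrogenase, moved least. It was lower in YJS9, with -0.33 and -0.55 on the arrays, and in YKH109, with -0.12, -0.54 and -0.61. Its other arrays ran from -0.62 to 0.46, with no call, and its self arrays from -0.38 to 0.48.

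Among the aromatic genes no member was called higher in any group, while 4 of the 8 were called lower somewhere. The same counts were not made over all genes, so they are not read as particular to this pathway. ARO9, an aromatic aminotransferase outside the list, rose in 8 strains, as given below. ARO2 (YGL148W), chorismate synthase, the last step shared by the 3 aromatic amino acids, fell in 6 strains. It read -1.20 and -1.27 in YKH107, -1.09, -1.51 and -1.28 in YKH109, -1.43 and -0.91 in YKH101, -0.92 and -0.85 in YJS9, -0.66 and -1.01 in YKH108 and -0.89 in YJS8. All lay below the self arrays, at -0.22 to 0.45.

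ARO2 was fitted at -1.27 ± 0.17 in YKH109, -1.23 ± 0.20 in YKH107, -1.17 ± 0.20 in YKH101, -0.97 ± 0.29 in YJS8 (adjusted p = 0.0441), -0.88 ± 0.20 in YJS9 and -0.84 ± 0.20 in YKH108. It was the 1 gene that fell in YJS8. Not called were YKH100 (-0.51), YJS7 (-0.35 and -0.45), YKH104 (-0.12 and -0.76), YKH106 (0.38 and -0.43) and YJS8 at 26 °C (-0.29 and 0.15).

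ARO3 and ARO4 encode the isozymes of the first step, one inhibited by phenylalanine and the other by tyrosine. ARO3 fell in YKH107 (-1.51 ± 0.13, adjusted p = 3.72e-06), YKH109 (-0.88 ± 0.11) and YKH104 (-0.52 ± 0.13). ARO4 was called nowhere, and this rests on 1 array. On YKH109 replicate 2 it stood at 4.30, against -1.53 and -1.57 on the other YKH109 arrays, which widened its SE in all groups and put its fitted value in YKH109 at 0.36. Without that array ARO4 was lower in 8 strains, among them YKH107 (-1.87 ± 0.14), YKH109 (-1.55 ± 0.14), YKH101 (-1.42 ± 0.14) and YKH108 (-1.01 ± 0.14). On single arrays it read -1.84 and -1.90 in YKH107 and -1.28 and -1.56 in YKH101.

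In the tryptophan branch no gene was called in more than 3 strains. TRP4, anthranilate phosphoribosyltransferase, fell in YKH107 (-0.85 ± 0.17), YKH109 (-0.67 ± 0.14) and YKH101 (-0.48 ± 0.17). TRP3, which carries a later step and a subunit of anthranilate synthase, fell in YKH101 (-0.59 ± 0.21, adjusted p = 0.0396). TRP2, the other subunit, and TRP5, tryptophan synthase, were called nowhere, with values from -0.24 to 0.55 and from -0.48 to 0.32.

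ARO1 (YDR127W), which carries out the steps between the first step and those of Aro2, stood closest to 0 of the 8. It read 0.19 and 0.29 in YKH107, -0.48 and 0.05 in YJS9, -0.44 and -0.17 in YKH106 and 0.02 and 0.17 in YKH101. The other arrays ran from -0.20 to 0.31. The self arrays held between -0.40 and 0.11, and no strain was called.

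HOM2 and HOM3 act in the stretch that threonine shares with methionine. They were called in opposite directions in YKH108 and YKH109, and both were called lower in YJS7. HOM2 (YDR158W), aspartate semialdehyde dehydrogenase, fell in 6 strains and rose in none. Its arrays read -1.85 and -1.69 in YKH107, -1.27, -1.63 and -1.04 in YKH109, -1.02 and -1.12 in YKH101, -0.82 and -1.37 in YJS7, -0.54 and -0.88 in YKH104 and -0.23 and -0.73 in YKH108. The YKH108 arrays overlapped the self arrays, which held between -0.39 and 0.34, and the other 5 strains lay below them.

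The fitted values of HOM2 were -1.77 ± 0.17 in YKH107 (adjusted p = 9.3e-06), -1.29 ± 0.14 in YKH109, -1.09 ± 0.17 in YJS7, -1.07 ± 0.17 in YKH101, -0.71 ± 0.17 in YKH104 and -0.48 ± 0.17 in YKH108 (adjusted p = 0.0475). It was not called in YJS9 (-0.59 and -0.27), YKH100 (-0.38), YKH106 (0.14 and -0.35), YJS8 (-0.03) or YJS8 at 26 °C (0.20 and 0.21). HOM3, aspartate kinase, which starts the pathway and is inhibited by threonine, rose in YJS8 (1.32 ± 0.20, adjusted p = 0.00138), YKH108 (0.61 ± 0.14), YJS9 (0.51 ± 0.14) and YKH109 (0.47 ± 0.12). It fell in YJS7 (-0.67 ± 0.14). Its self arrays ran from -0.81 to 0.69, a range that holds the fitted values of all of these strains except YJS8.

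THR1, homoserine kinase, shared the pattern of ARO4. It stood at 2.47 on YKH109 replicate 2 and at -0.38 on both other YKH109 arrays, and it was called nowhere. Without that array THR1 was lower in YKH101 (-0.67 ± 0.17), YKH107 (-0.63 ± 0.17), YKH108 (-0.62 ± 0.17) and YJS9 (-0.62 ± 0.17), and at -0.38 in YKH109 it was not called (adjusted p = 0.0763). THR4 (YCR053W), threonine synthase, was called nowhere. Its arrays lay between -0.49 and 0.28 in all groups except YJS7, with -0.04 and -0.88, and a self array of YKH105 read -0.96.

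The fit also compared strains that share a reference. YKH107 and YKH109 were set against each other within it, and 9 genes were lower in YKH107 while 0 were higher. That is 25% of the list, against 6.57% of all genes lower and 4.42% higher. The largest called differences were ARG1 at -2.64 ± 0.20 (adjusted p = 1.09e-05), LYS20 at -1.72 ± 0.21, HIS4 at -1.55 ± 0.27 and ARG4 at -1.39 ± 0.24. ARO4 differed by -2.24 without a call, which rests on YKH109 replicate 2. LYS21, ARG3, HIS5, ARO3 and LYS4 followed, between -1.15 and -0.49.

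The fitted values show both patterns. ARG1 was -2.05 in YKH107 and 0.59 in YKH109, and LYS20 was -1.01 and 0.71. By contrast HOM2 at -1.77 and -1.29, ARO2 at -1.23 and -1.27 and LYS1 at 1.25 and 1.62 were called with the same sign in both strains, with no call of a difference. Their differences were -0.48, 0.03 and -0.37. With replicate 1 or 2 of YKH107 left out, 4 or 5 differences were called, and 2 were called on the deposited scale.

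The contrast of YKH107 with YKH108 was chosen after the values were seen. Here 17 genes were lower in YKH107, 47.2% of the list against 9.95% of all genes, and LEU1 was the 1 gene higher, at 1.39 ± 0.27, where 8.03% of all genes were higher. ARG1 differed by -3.43 ± 0.22 (adjusted p = 2.16e-06), HIS4 by -2.34 ± 0.27, LYS20 by -1.90 ± 0.23 and ARG3 by -1.83 ± 0.20. ARG1, ARG3, HIS4, HIS5, LEU4, LYS20 and LYS21 were called higher in YKH108 and lower in YKH107. On the deposited scale 7 genes were called.

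**Figure D4:**
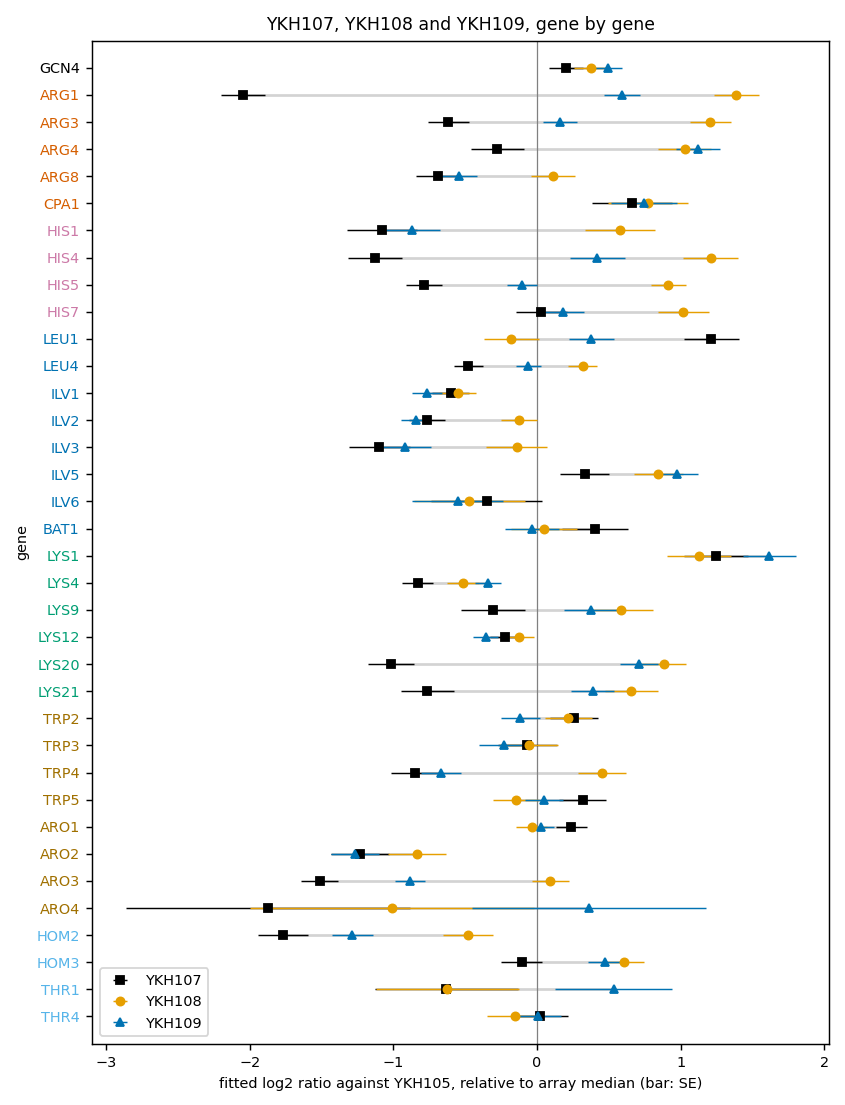
Fitted log2 ratio against YKH105, relative to the array median, of each of the 36 genes in YKH107, YKH108 and YKH109 (bars: SE; grey lines join the 3 strains). ARG1 runs from -2.05 in YKH107 to 1.39 in YKH108 and HIS4 from -1.13 to 1.21, while CPA1 (0.66, 0.77 and 0.75) and ILV1 (-0.60, -0.55 and -0.77) lie close together.

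The ratio of YJS8 to YJS6 after the shift was compared with the same ratio at 26 °C, so a difference does not show how either strain itself changed with temperature. For 5 genes the ratio was higher after the shift, 13.9% of the list against 4.41% of all genes, with 0 lower against 3.05%. These were HOM3 (1.17 ± 0.25, adjusted p = 0.0152), ARG1 (1.12 ± 0.27), HIS7 (1.12 ± 0.31), LYS20 (1.09 ± 0.28) and HIS5 (0.98 ± 0.22). For ARG1 the shifted array read 1.22 and the 26 °C arrays -0.18 and 0.16. The shifted side is 1 array assumed to vary like the others. The 2 arrays at 26 °C correlated at r = -0.44 over all genes, so that side is not a firm baseline. Leaving out either 26 °C array left 1 call, leaving out YJS9 replicate 2 left 3, and on the deposited scale or with the repeated column counted as YJS8 there were 0.

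YKH101 and YJS9 differed in 1 gene of the 36, 2.78% of the list against 0.723% of all genes higher and 2.11% lower. LYS9 was 1.61 ± 0.31 higher in YKH101 (adjusted p = 0.0217), with 0.88 and 2.07 on the YKH101 arrays and -0.41 and 0.13 on those of YJS9. The call was lost without YKH101 replicate 2 or YJS9 replicate 1. YKH104 and YKH106 were called different by limma in 0 genes of the list, where 0.0182% of all genes were higher and 0.146% lower. At an unadjusted p under 0.05 there were 8 (22.2%, against 6.09% of all genes), among them ARG3 and HIS4, at -1.21 and -1.30 in YKH104 and at -0.48 and -0.59 in YKH106.

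YJS8 and YKH108 have different references and share no array. Of the 10 genes higher in YJS8, 9 were also higher in YKH108, which is 90% of the first list and 64.3% of the 14 of the second. Over all genes tested in both strains the shares were 83% and 39.5%, so the first is near that of any gene higher in YJS8. LYS9 was called in YJS8 alone, at 1.03 against an uncalled 0.58 in YKH108. CPA1, GCN4, LEU4, LYS1 and LYS21 were called in YKH108 alone, and their YJS8 values of 0.85, 0.54, 0.39, 0.89 and 0.41 were positive without a call. ARO2 was lower in both.

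Other enzymes of the same 6 pathways were described from a list of 16, of which 14 were on the array. Of these 14, 2 rose and 5 fell in YKH107, 1 and 7 in YKH109, 3 and 5 in YJS9, 1 and 4 in YKH101, 1 and 4 in YKH108, 1 and 2 in YJS7, and 1 and 0 in each of YJS8, YKH104 and YKH100. Over all genes, 23.9% rose and 24.7% fell in YKH107, 25.5% and 27.6% in YKH109, and 21.7% and 22.3% in YJS9. The shares were 19.6% and 20.1% in YKH101, 17.6% and 19.6% in YKH108, and 7.36% and 6.93% in YJS7. They were 8.34% and 7.47% in YJS8 and 6.56% and 7.12% in YKH104, with 1.24% in either direction in YKH100. No count here is read as a trait of these 14 genes. ORT1, the mitochondrial ornithine carrier of arginine synthesis, fell in YKH107 (-1.35 ± 0.17), YKH101 (-1.05 ± 0.17), YJS9 (-1.04 ± 0.17), YKH109 (-1.01 ± 0.14) and YKH108 (-0.76 ± 0.17). In the last 4 of these strains ARG1 was higher. ARO9, an aromatic aminotransferase used mainly in breakdown, rose in 8 strains, most in YKH101 (2.58 ± 0.22), YJS9 (2.46 ± 0.22) and YJS7 (1.90 ± 0.22).

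PCL5 encodes a cyclin that marks the Gcn4 protein for destruction and is itself a target of Gcn4. It read -1.68 and -1.42 in YKH107 and -0.93 and -0.997 in YKH104, against 1.31 and 1.62 in YKH108, 1.63 in YJS8, 1.58 and 1.31 in YJS9 and 1.35 and 0.73 in YKH101. It was called in all 6, lower in YKH107 (-1.55 ± 0.22) and YKH104 (-0.96 ± 0.22) and higher in YJS8 (1.55 ± 0.32), YKH108 (1.47 ± 0.22), YJS9 (1.44 ± 0.22) and YKH101 (1.04 ± 0.22). HIS4, HIS5 and ARG3 were called with these signs in the same 6 strains. Of the 14 regulators measured, PCL5 included, 2 rose and 2 fell in YKH107, 3 and 4 in YKH108, 1 and 6 in YKH109, 2 and 3 in YJS9, 2 and 1 in YKH101, 2 and 0 in YJS8 and 0 and 1 in YKH104. The shares over all genes are those given for the other enzymes, and these counts are not read as a trait of the regulators.

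Genes of other amino acids and of nitrogen use numbered 12. ASN1, an asparagine synthetase and target of Gcn4, fell in YKH107 (-0.88 ± 0.16) and rose in YJS8 (0.83 ± 0.24). Its YKH107 arrays, at -0.84 and -0.92, lay below the YKH105 self arrays, at -0.22 to 0.03. A YJS6 self array lay lower still, at -1.55. CHA1, the serine and threonine deaminase that degrades these amino acids, rose in YJS9 (3.86 ± 0.18), YKH101 (2.65 ± 0.18), YKH100 (2.30 ± 0.26) and YJS7 (0.68 ± 0.18), and fell in YKH109 (-1.28 ± 0.18) and YKH108 (-0.63 ± 0.18). GLN1, glutamine synthetase, rose in YKH101 (1.59 ± 0.27), YKH109 (1.48 ± 0.22), YJS8 (1.30 ± 0.39), YJS9 (1.25 ± 0.27), YKH108 (1.09 ± 0.27) and YKH107 (0.77 ± 0.27). Over the list, 2 rose and 4 fell in YKH107, 3 and 4 in YKH108, 4 and 4 in YKH109, 4 and 2 in YJS9, 3 and 3 in YKH101, 2 and 0 in YJS8, and 1 and 0 in YJS7, where 11 were tested, and in YKH100. The shares over all genes are again those given for the other enzymes, and these counts are not read as a trait of this list.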

How the data were processed

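Images came from a GenePix 4000A scanner and GenePix Pro 4.0, per the labels' protocols. Each array's values, as the authors deposited them, are log2 ratios between its channels, 1 per spot, normalized in a way not given in the sources used here. Of 6400 spots, 5578 carried 1 gene, 822 none and 0 several. Systematic names matched the supplied gene table for 5573. Spots of a gene were averaged, which gave 5547 genes, and each array was centred on its median, because self arrays had medians away from 0.

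For each gene, limma 3.58.1 in R 4.3.3 (lmFit, eBayes) fitted 1 term per group and 1 dye term over 21 arrays, with 9 residual and 2.84 prior degrees of freedom. Fitting a gene required a value on at least 18 arrays, which 5519 genes met. Testing it in a group also required a value in each orientation of that group, which left fewer, such as 5505 in YKH107 and 5409 in YJS7. P-values were adjusted by Benjamini-Hochberg within each group or contrast over all genes tested, with a threshold of 0.05. The median SE was 0.251 for 1 array, 0.173 for 2 and 0.144 for 3. Precision is limited by how few arrays there are, and p-values measure the spread between arrays, which may be technical. Arrays of opposite orientation correlated positively within strains, except YJS8 at 26 °C (r = -0.44 over genes), and were read as already turned. The correlation was weak in YJS7 (r = 0.27) and YKH106 (r = 0.29). The fit was tested on simulated data.

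The members and lists were chosen with earlier results of these data known. Named genes were GCN4 in every group, up to 5 called members of largest size per group (2 where none was called), the members of largest and smallest mean size per pathway array by array, up to 4 per contrast, and up to 3 called genes of each other list and group. Members beyond this rule were added to cover each pathway. Leaving out both copies of the repeated column followed from seeing the data. Alternatives were the deposited scale, no dye term, the repeated column under either or both strains, genes with values on every array, each array left out, and a robust prior. Promoter and protein sequences were not analysed here.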

Additional observations from a re-analysis of the deposited data

Results flagged for a closer look

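On the 4 YJS6 self arrays, 2 of 36 genes had 1 array far from the other 3, where chance flags about 1 in 20: LEU1 with -0.25 and ARO3 with -0.078. The differences by temperature that follow rest on 1 shifted YJS8 array and on 26 °C arrays that correlated at r = -0.44. None was called on the deposited scale or with the repeated column counted as YJS8. For 5 genes the ratio of YJS8 to YJS6 differed between 37 °C and 26 °C: by 1.17 for HOM3, 1.12 for ARG1, 1.12 for HIS7, 1.09 for LYS20 and 0.98 for HIS5. The HIS7 difference had an adjusted p of 0.049968.

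The repeated column, deposited for both YKH100 and YJS8, entered no test. There 11 of the 36 genes lay outside the range of the 7 self arrays, 30.6% of the list against 39.2% of all genes, so the list does not stand out. Above it were ILV5 at 0.53, HIS4 at 0.49, THR4 at 0.43, ARG3 at 0.27 and ARO1 at 0.20. Below it were LYS12 at -0.53, HOM2 at -0.41, ARO2 at -0.29, TRP2 at -0.25, ARO4 at -0.15 and TRP4 at -0.14. In the same column GCN5 stood at -6.00, against -4.98 on YKH100 replicate 1 and 0.52 on YJS8 replicate 1. The column was assigned to no strain.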

How the results depend on the processing

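On the deposited scale these called genes changed sign: HIS5 (-0.028) and ILV5 (-0.065) in YJS8, ARG8 (-0.12) and HOM3 (-0.016) in YJS9, ARG1 (-0.23), ARG3 (-0.15), GCN4 (-0.012), HIS4 (-0.14), HIS5 (-0.32) and LEU1 (-0.11) in YKH101, GCN4 (-0.32), HOM3 (-0.091), LEU4 (-0.38) and LYS21 (-0.040) in YKH108, and ARG1 (-0.32), CPA1 (-0.17), GCN4 (-0.42), HOM3 (-0.44), LYS20 (-0.20) and LYS21 (-0.52) in YKH109. The list's median there was -0.20 in YKH100, -0.56 in YKH101, -0.046 in YJS7, -0.49 in YJS8, -0.24 in YJS8 at 26 °C, -1.50 in YKH107, -0.41 in YJS9, -0.89 in YKH109 and -0.53 in YKH108. Calls numbered 7 in YKH101, 6 in YJS9, 4 in YKH108, 0 in YJS7, YJS8, YKH104 and the contrasts of YJS8 by temperature and of YKH101 with YJS9, 2 for YKH107 against YKH109 and 7 for YKH107 against YKH108. Counting the repeated column for both strains, or for YJS8 alone, YJS8 had 3 calls, a median of 0.18 and 0 calls between temperatures. As YJS8 alone, YJS7 had 3, and as YKH100 alone, YKH101 against YJS9 had 2. With values required on every array, the median of YKH101 was 0.092 and YKH101 against YJS9 had 2 calls. Each array left out in turn gave the following ranges of calls: 0 to 8 in YJS7, 8 to 13 in YJS8, 12 to 23 in YJS9, 9 to 22 in YKH101, 1 to 10 in YKH104, 14 to 21 in YKH107, 8 to 21 in YKH108, 17 to 21 in YKH109 and 0 to 0 in YKH100, YKH106 and YJS8 at 26 °C. Between strains they were 1 to 7 for YJS8 by temperature, 0 to 2 for YKH101 and YJS9 (2 without either YJS7 array), 0 to 0 for YKH104 and YKH106, 4 to 11 for YKH107 and YKH109 and 12 to 19 for YKH107 and YKH108. Medians ran from -0.27 to -0.17 in YJS7, 0.38 to 0.41 in YJS8, -0.08 to 0.11 in YJS8 at 26 °C, -0.091 to 0.39 in YJS9, 0.01 to 0.04 in YKH100, 0.087 to 0.17 in YKH101, -0.22 to -0.0053 in YKH104, -0.04 to 0.24 in YKH106, -0.56 to -0.42 in YKH107, 0.16 to 0.22 in YKH108 and -0.05 to 0.03 in YKH109. ARO4 in YKH109 turned to -1.55 without YKH109 replicate 2 and reached 1.47 without replicate 1. The causes were not tested, and calls over all genes were not counted in these settings. Of 182 named values, 16 lost their call without the dye term and 1 with a robust prior, and no sign turned in either. No paired analysis was possible because the labels give no replicate numbers, and replicate 1 as numbered here always had the test strain in channel 1, so that pairing cannot be separated from the dye term.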
